A study of Mus musculus with 6 samples.

Results

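Amino acid transporter genes were followed through 6 RNA sequencing libraries of a mouse aortic cell line. Members were all genes whose symbol begins with Slc1a, Slc3a, Slc6a, Slc7a, Slc36a, Slc38a or Slc43a and a number in the deposited gene table, which gave 62 of 21674 genes. The rule takes gene symbols only and no measured value. It also takes in Slc7a6os, a neighbour of Slc7a6 that is not a carrier, and members of the Slc6a family that carry monoamines, creatine or taurine. The labels describe a cell line from Fn AB+/- mouse aorta, called endothelial, that was immortalised with SV40 under a doxycycline switch and taken off doxycycline before the experiment. All 6 libraries share this background. The labels give 3 genotypes, each without and with TNFalpha at 30 ng/mL: the parental line (WT), a clone grown from 1 cell after CRISPR deletion of Ptbp1 (KO), and the clone given human PTBP1 as a cDNA (Rescue). There was 1 library per group and no replicate, and a clone cannot be told apart from the loss of Ptbp1.

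Labels and file names disagreed for 4 of the 6 libraries. The names hold basal, taken here as WT, KO or Rescue, and whether TNF was given. WT with TNF by name is labelled KO, KO by name is labelled Rescue, KO with TNF by name is labelled WT_TNF, and Rescue by name is labelled KO_TNF. Names and labels match for WT and for Rescue_TNF. Groups below follow the file names ("the line named KO"), and results with the labels' groups close the account. Mouse Ptbp1, the gene that was targeted, was at 236 and 270 TPM (transcript abundance scaled for length and depth) without and with TNF in the line named WT, 266 and 275 in the line named KO, and 127 and 129 in the line named Rescue. Its 2 lowest libraries, both named Rescue, are labelled KO_TNF and Rescue_TNF, so this transcript checks neither set of names. Ptbp2, a paralogue that Ptbp1 represses, was at 22.8 and 20.7 TPM in the line named WT, 128 and 106 in the line named KO, and 42.2 and 45.3 in the line named Rescue. Ccl2, a chemokine gene that TNF turns on, was at 149, 105 and 169 TPM in the 3 libraries named without TNF and at 6017, 1138 and 5202 TPM in those named with TNF. Expected counts totalled 19582767 to 21609230 per library. Of 14 endothelial markers, 10 were below 1 TPM in all 6 libraries, among them Pecam1 and Cdh5, and Cldn5 was listed at 0 in each. The endothelial list summed to 166 to 221 TPM, of which Eng made up 147 to 200, whereas 14 smooth muscle and fibroblast markers summed to 4965 to 11989 TPM. Collagens made up most of that sum, with Col1a1 at 2569 to 6220 and Col1a2 at 1254 to 3955 TPM. Of the smooth muscle genes, Acta2 was at 709 to 1561 TPM and Myh11 did not exceed 0.30 TPM.

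Amino acid carriers of the plasma membrane work as uniporters, sodium-driven pumps and exchangers, and several exchangers reach the surface only as a light chain bound to the heavy chain Slc3a2 (4F2hc). Arginine enters through the cationic carriers Slc7a1, Slc7a2 and Slc7a3 and is the substrate of the inducible nitric oxide synthase Nos2, and cystine enters through Slc7a11 (xCT) for glutathione synthesis. Many carrier genes are targets of Atf4, the factor that answers amino acid shortage, while carriers of the lysosome report amino acids to the kinase mTORC1.

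The sequences shown here are alternative exons of Slc7a2 and Slc38a6 and the promoter of Slc7a11, which has matches to the Atf4 response element. Slc7a2 lies on chromosome 8 (chr8:40862396-40922308, + strand, GRCm38) and has a pair of alternative exons that each code for a version of the same stretch of the carrier. The upstream exon of the pair (chr8:40908056-40908195) has 140 nt and the downstream exon (chr8:40908398-40908534) has 137 nt. In a global alignment 84 of 137 aligned bases were identical (61.3%), and both lengths leave a remainder of 2 when divided by 3, so either exon keeps the same frame. They are shown from the GENCODE vM21 transcripts, 5′ to 3′, with the bases that differ in capitals.

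Slc7a2 upstream exon: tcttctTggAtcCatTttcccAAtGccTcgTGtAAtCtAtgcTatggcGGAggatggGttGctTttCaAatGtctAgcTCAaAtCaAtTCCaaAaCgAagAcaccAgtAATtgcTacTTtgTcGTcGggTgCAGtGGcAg

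Slc7a2 downstream exon: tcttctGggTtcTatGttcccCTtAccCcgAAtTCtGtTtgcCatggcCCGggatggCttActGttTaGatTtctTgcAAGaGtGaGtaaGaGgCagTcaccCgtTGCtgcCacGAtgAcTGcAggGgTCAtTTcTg

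Slc38a6 (chr12:73286779-73354049, + strand), a member of the sodium-coupled neutral amino acid transporter family, has a cassette exon of 101 nt (chr12:73293699-73293799). GENCODE vM21 places it in the transcripts Slc38a6-201, annotated as subject to nonsense-mediated decay, and Slc38a6-204, and in both the reading frame ends inside it. The exon is shown up to this stop codon, which is in capitals (chr12:73293699-73293781).

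Slc38a6 cassette exon: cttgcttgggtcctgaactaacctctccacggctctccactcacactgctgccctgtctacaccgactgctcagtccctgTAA

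RefSeq promoter windows (GRCm38.p6, 250 bases before to 50 bases after each start) were found for 44 of the 62 members and for 25 of those tested below, but not for Slc7a2 or Slc7a5. The Atf4 response element was searched as TGATGNAA and, for the other strand, TTNCATCA. It occurred in 3.97% of all 32851 windows. Among the 25 tested members it was in windows of 3, Slc1a4, Slc7a7 and Slc7a11. The Slc7a11 window (chr3:50443564-50443863, - strand) held 2 matches, in capitals, 1 on each strand. The NF-kB consensus occurred in 8.46% of all windows and among the 25 tested members in those of 5, Slc1a6, Slc36a4, Slc43a2, Slc6a12 and Slc7a7. These 25 genes had 41 windows, so counts of genes cannot be set directly against shares of windows. A match is a description of letters, not a bound site.

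Slc7a11 promoter: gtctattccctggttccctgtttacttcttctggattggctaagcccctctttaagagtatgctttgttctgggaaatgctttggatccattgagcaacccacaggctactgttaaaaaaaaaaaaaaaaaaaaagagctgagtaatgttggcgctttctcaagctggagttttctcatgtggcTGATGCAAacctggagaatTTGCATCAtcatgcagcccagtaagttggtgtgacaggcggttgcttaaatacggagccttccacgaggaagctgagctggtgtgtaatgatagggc

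Of the 62 members, 35 had enough reads to be tested among 12728 genes, and 27 did not. Of those 27, 11 had no read in any library. The other 16 had at most 42 reads over all 6 and did not pass the filter on low counts, so their changes were not tested. The untested genes include the kidney and gut carriers Slc6a19 and Slc7a9. Slc38a2 (SNAT2), a sodium-driven pump for glutamine and alanine, had the highest median level of the members: it was at 388 TPM without and 243 with TNF in the line named WT, 315 and 226 in the line named KO, and 354 and 212 in the line named Rescue. Among cationic carriers, the housekeeping gene Slc7a1 (CAT-1) lay within a narrow range, 39.4 to 49.5 TPM, and Slc7a3 did not exceed 1.62 TPM. The glutamine carrier Slc1a5 (ASCT2) ranged from 57.2 to 88.2 TPM and Slc38a1 (SNAT1) from 5.41 to 8.09 TPM. Slc7a1, Slc1a5 and Slc38a1 did not pass the test in any comparison with the file-name groups.

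**Figure D1:**
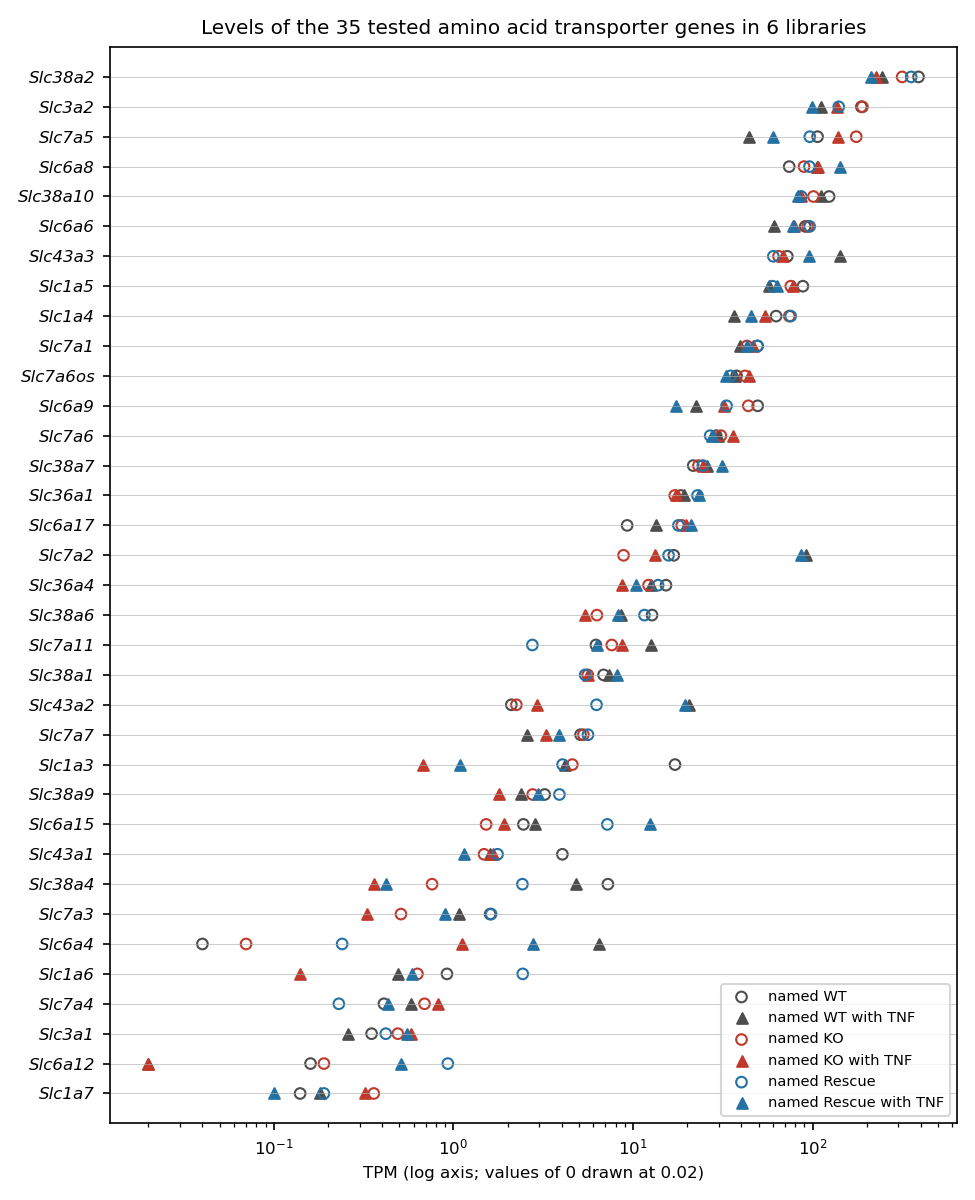
Levels of the 35 tested members in each library, in TPM on a log axis, ordered by their median. Open circles are libraries named without TNF, filled triangles those named with TNF, and grey, red and blue are the lines named WT, KO and Rescue. The triangles of Slc7a2 for the lines named WT and Rescue, 91.9 and 85.8 TPM, stand apart from its other 4 libraries, at 8.85 to 16.9 TPM.

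The test was edgeR's quasi-likelihood test, in a model that adds genotype and TNF over all 6 libraries, and a gene was called at a Benjamini-Hochberg adjusted p under 0.05 over all 12728 genes. With no replicate, the 2 residual degrees of freedom hold how far the TNF effect varied from line to line. The test also draws on the spread of all genes, so a p-value does not rest on the gene's own residual alone. The p-values therefore set an effect against unevenness over lines or treatments, pooled in part over genes. They do not compare it with the spread between cultures, and a called effect need not be even over the lines. The SE after ± restates the test: it is the size of the log2 fold change over the root of its F statistic.

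TNF over the 3 lines. With TNF, 5 of the 35 members rose and 7 fell, 34.3% of those tested, beside 22.0% called among all genes (11.2% higher and 10.8% lower). The member median was -0.07 on the log2 scale and that of all genes -0.01. In bulk RNA, fewer cells of a type and less RNA per cell cannot be told apart. The arginine carrier Slc7a2 (CAT-2) was at 16.9 TPM without and 91.9 with TNF in the line named WT, 8.85 and 13.2 in the line named KO, and 15.8 and 85.8 in the line named Rescue. All 3 lines were higher with TNF, but the TNF library of the line named KO lay below the untreated libraries of the other lines. Its log2 fold change over the lines was 1.95 ± 0.42 (adjusted p = 0.0353). Reads of Slc7a2 and of Gm26584, whose exons overlap it on the other strand, may mix, since no source used here gives the strand of the libraries. The same limit holds for Slc7a7 (Oxa1l), Slc38a9 (Gm47827), Slc38a10 (Gm11769) and Slc6a9 (B4galt2, Ccdc24 and Gm17114), which are named below.

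The cystine carrier Slc7a11 was at 6.21 and 12.5 TPM without and with TNF in the line named WT, 7.61 and 8.72 in the line named KO, and 2.75 and 6.32 in the line named Rescue. TNF and untreated libraries overlapped across lines, and within each line the TNF library was higher (log2 fold change 0.89 ± 0.21, adjusted p = 0.0422). Slc6a4, the serotonin transporter, had 1, 2 and 7 reads in the libraries named WT, KO and Rescue without TNF and 197, 32 and 76 with TNF, so every TNF library was above every untreated library. Its fitted log2 fold change of 4.77 ± 0.62 (adjusted p = 0.0133) depends on the prior count, because the untreated libraries hold so few reads. The creatine carrier Slc6a8 was at 74.0, 89.6 and 95.9 TPM in the lines named WT, KO and Rescue without TNF and at 106, 106 and 142 TPM with TNF. Its groups did not overlap, and it rose by 0.54 ± 0.08 (adjusted p = 0.0191). Slc38a7, a lysosomal glutamine exporter, rose by 0.32 ± 0.08 (adjusted p = 0.0428).

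The glutamate pump Slc1a3 (GLAST) fell by 2.08 ± 0.19 on the log2 scale with TNF (adjusted p = 0.00851). It was at 17.1 and 4.18 TPM without and with TNF in the line named WT, 4.59 and 0.68 in the line named KO, and 4.05 and 1.09 in the line named Rescue. Each line was lower with TNF, yet the TNF library of the line named WT was at the level of the untreated libraries of the other lines. Slc38a2, with the values above, was lower in each TNF library than in each untreated library (log2 fold change -0.54 ± 0.08, adjusted p = 0.0152). The heavy chain Slc3a2 was at 187 and 112 TPM without and with TNF in the line named WT, 189 and 136 in the line named KO, and 140 and 98.8 in the line named Rescue. Within each line its TNF library was lower (log2 fold change -0.48 ± 0.07, adjusted p = 0.0164). The glycine carrier Slc6a9 changed by -0.75 ± 0.14, the light chain Slc7a7 by -0.64 ± 0.16, the alanine and serine carrier Slc1a4 by -0.56 ± 0.08 and the lysosomal arginine sensor Slc38a9 by -0.39 ± 0.10, with adjusted p of 0.0247, 0.0442, 0.0164 and 0.0489. Slc7a5, the leucine carrier, was lower with TNF in each line but was not called for TNF (values below).

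The TNF counts changed when a library was left out. In this model the other library of that line then also drops out of the TNF estimate, and 1 residual degree of freedom is left. Such a fit therefore cannot show whether the counts rest on a single library. Without the library labelled KO_TNF (named Rescue) or Rescue_TNF, 0 members and 3 of all genes were called, without the library labelled WT 3 members, and without the library labelled KO (named WT with TNF) 2 members. Scaling by library size alone gave 4 members higher and 9 lower, and over all genes 1197 of 2711 calls higher against 1428 of 2803. Slc38a7 lost its call with that scaling, with DESeq2 and in the second quantification, Slc38a9 with DESeq2 and without a filter on low counts, and Slc7a7 with DESeq2. Smooth muscle and fibroblast markers, by level mostly collagens, summed to 10961 to 11989 TPM without TNF and 4965 to 7108 TPM with it. Of the 14, 1 was higher and 9 lower (71.4%, beside 22.0% of all genes), and 1 of 8 tested endothelial markers was higher (12.5%). Of 4 tested blood cell and macrophage markers 2 were higher and 1 lower (75%), and 1 of 2 epithelial markers was lower (50%). The blood cell and macrophage list summed to 30.4 to 41.5 TPM without TNF and 37.4 to 61.1 TPM with it. The part of any of these lists in these results was not tested.

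**Figure D2:**
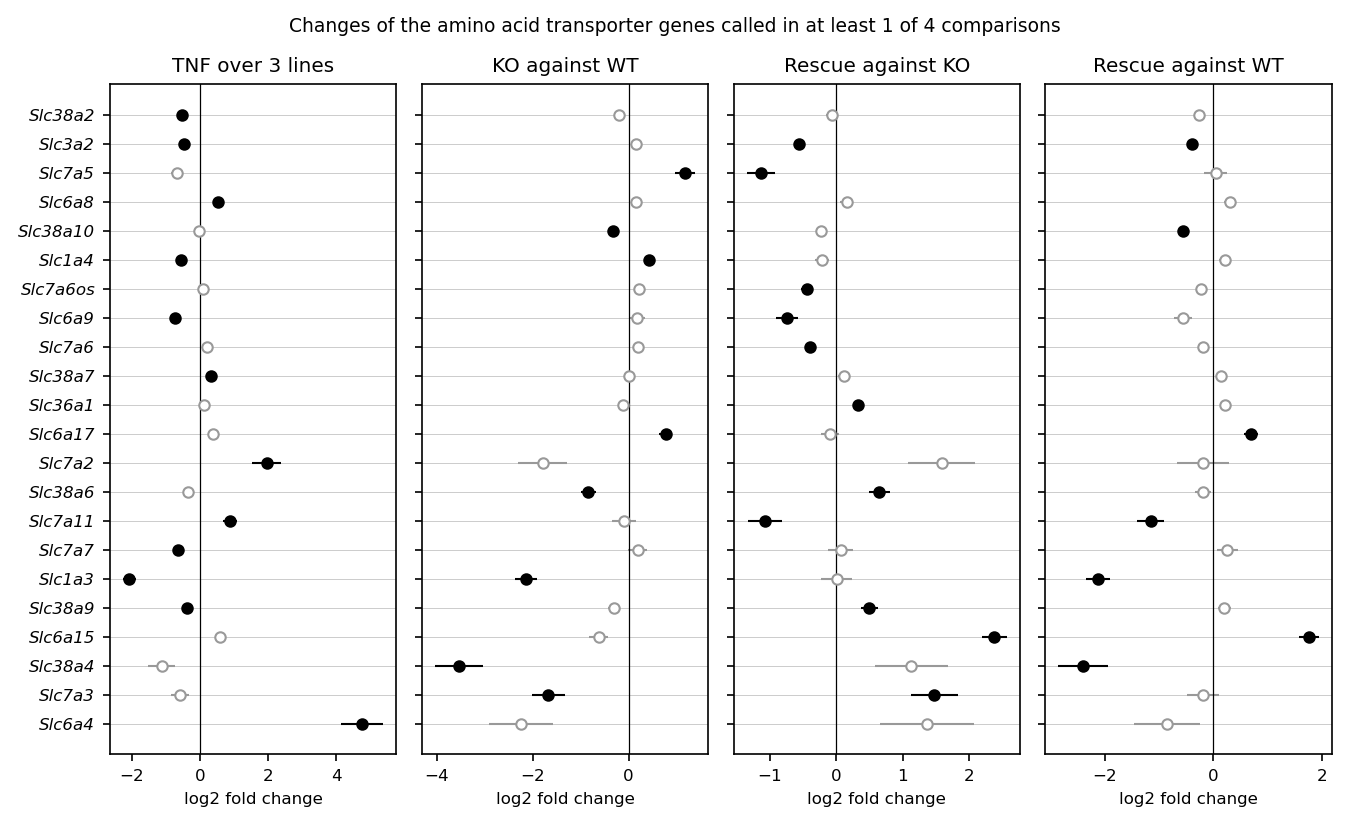
Log2 fold change (x axis, with the SE as bars) of the 22 members called in at least 1 of 4 comparisons, ordered by level. Filled black points passed the adjusted p of 0.05 and open grey points did not. Slc7a5 is high in the line named KO against WT (1.18) and low in Rescue against KO (-1.13).

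TNF response of the line named KO. A model with its own term for TNF in the line named KO tested whether the response there differed from that in the lines named WT and Rescue. It called 0 members higher and 2 lower, Slc7a2 and Slc7a11, beside 1.36% of all genes called (0.369% higher and 0.99% lower). For Slc7a2 the TNF library was 5.95-fold its untreated library in the line named WT, 1.58-fold in the line named KO and 5.73-fold in the line named Rescue. The response in the line named KO was smaller by 1.89 ± 0.14 on the log2 scale (difference -1.89, adjusted p = 0.00259). Slc7a11 was 2.20-fold, 1.21-fold and 2.41-fold in the same order (difference -0.92 ± 0.17, adjusted p = 0.0470). Slc43a2, a leucine carrier of the LAT4 type, was at 2.10 and 20.4 TPM without and with TNF in the line named WT, 2.24 and 2.92 in the line named KO, and 6.26 and 19.5 in the line named Rescue. Its single-library ratios were 10.4-fold, 1.38-fold and 3.26-fold, and neither the difference (-1.99 ± 0.64, adjusted p = 0.274) nor TNF over the lines (1.91 ± 0.54, adjusted p = 0.0635) passed the test. Exons of Gm45606 overlap Slc43a2 on the other strand.

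The test of the response leaves 1 residual degree of freedom, the gap between the lines named WT and Rescue, which it treats like replicates. It too draws on the spread of all genes, so its small p-values do not come from that gap alone. Slc7a2 kept its call under DESeq2, both other scalings, no filter and the second quantification. Slc7a11 lost its call under 4 of these 5, with adjusted p of 0.067 to 0.433, and its difference in the second quantification was -0.52. The count over all genes was 173, against 60 with RLE factors, 271 with no filter and 13 in the second quantification. Leaving out a library could not be fitted here, as no residual degree of freedom would be left.

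**Figure D3:**
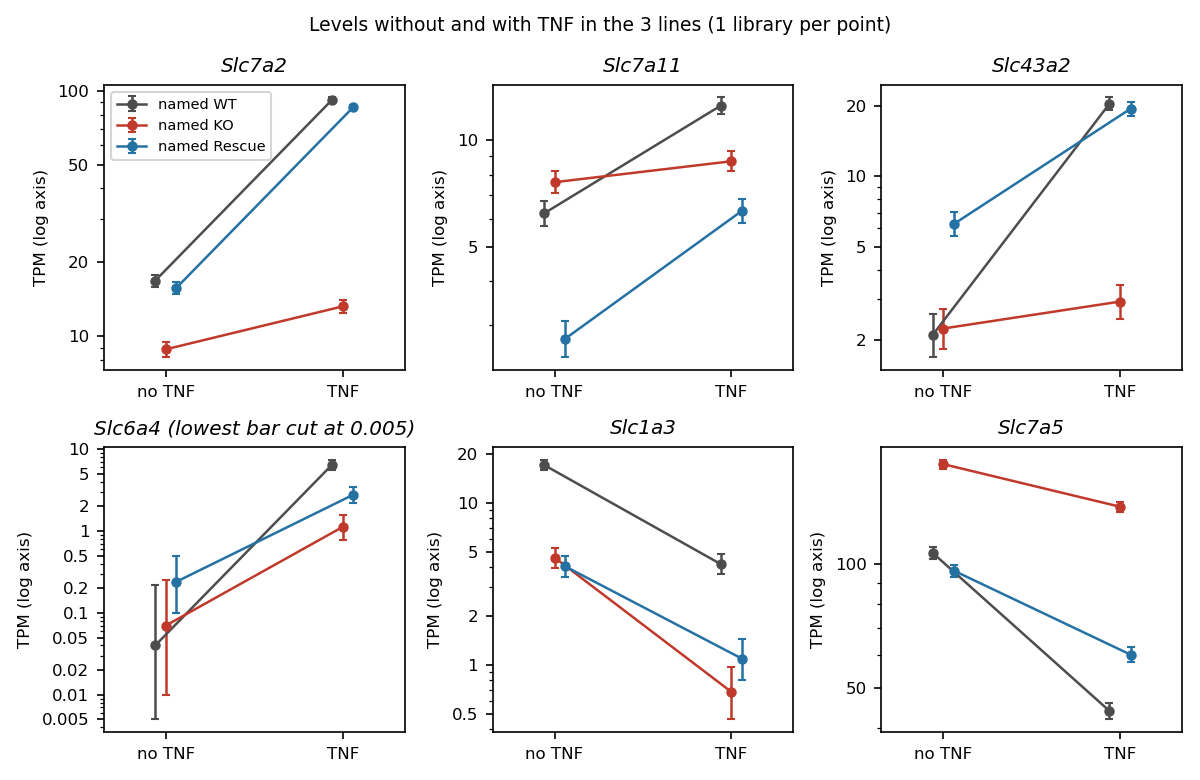
Levels of 6 members without and with TNF, in TPM on log axes, with 1 library per point and bars for 95% Poisson intervals of the count (counting error only). Slc7a2 climbs steeply in the lines named WT (grey) and Rescue (blue), to 91.9 and 85.8 TPM, and stays at 13.2 TPM in the line named KO (red).

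The line named KO against the line named WT. Here 3 of 35 members were higher and 5 lower, 22.9% of those tested, beside 33.0% of all genes called (16.8% higher and 16.2% lower). The member median was -0.09 and that of all genes 0.00 (log2). Slc7a5 (LAT1), which takes up leucine and other large neutral amino acids together with Slc3a2, was at 106 and 44.0 TPM without and with TNF in the line named WT, 175 and 138 in the line named KO, and 96.4 and 60.3 in the line named Rescue. Both libraries of the line named KO were above all others (log2 fold change 1.18 ± 0.21, adjusted p = 0.0166). Its partner Slc3a2 was not called (0.16 ± 0.08, adjusted p = 0.198). Slc6a17, a neutral amino acid carrier of synaptic vesicles, was at 9.27 and 13.5 TPM in the line named WT and 18.7 and 19.8 TPM in the line named KO (0.78 ± 0.13, adjusted p = 0.0146), and Slc1a4 was higher by 0.42 ± 0.10 (adjusted p = 0.0323).

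Slc38a4 (SNAT4) had 282 and 217 reads in the line named WT and 31 and 15 in the line named KO, which corresponds to 7.24 and 4.83 TPM against 0.76 and 0.36 TPM. The groups lay far apart, and the log2 fold change was -3.54 ± 0.50 (adjusted p = 0.00941). Slc1a3 was lower in the line named KO at matched treatment, with the values above (-2.14 ± 0.22, adjusted p = 0.00495). Slc7a3, the third cationic carrier, had 36 and 28 reads in the line named WT and 12 and 8 in the line named KO (-1.67 ± 0.35, adjusted p = 0.0229). Slc38a6 was at 12.8 and 8.60 TPM in the line named WT, 6.29 and 5.41 in the line named KO, and 11.6 and 8.22 in the line named Rescue (KO against WT -0.84 ± 0.16, adjusted p = 0.0172). Slc38a10 changed by -0.33 ± 0.08 (adjusted p = 0.0316). Slc7a2 missed the threshold (-1.78 ± 0.51, adjusted p = 0.0515).

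Slc7a2 was called lower in the line named KO with DESeq2 (adjusted p = 0.0488) and with no filter on low counts (adjusted p = 0.0395), and Slc7a3 lost its call with DESeq2 (adjusted p = 0.0516). Without the library labelled KO_TNF (named Rescue) or Rescue_TNF 2 members were called in this comparison, and without the library labelled KO (named WT with TNF) 4. Of the marker lists, 5 of 14 smooth muscle and fibroblast markers were lower and 0 higher, and 1 of 8 endothelial markers was higher and 2 lower. As shares called, these are 35.7% and 37.5%, near the 33.0% of all genes. The part of these markers in these results was not tested.

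The line named Rescue. Against the line named KO, 5 of 35 members were higher and 6 lower, 31.4% of those tested, beside 20.4% of all genes called (9.79% higher and 10.6% lower). The medians were 0.01 for members and for all genes. This comparison shares the libraries of the line named KO with the preceding one. The light chain Slc7a5 was lower in the line named Rescue (-1.13 ± 0.21, adjusted p = 0.0286), and so was its heavy chain Slc3a2 (-0.55 ± 0.09, adjusted p = 0.0198). Of other light chains, Slc7a11 (-1.07 ± 0.26, adjusted p = 0.0463) and Slc7a6 (-0.39 ± 0.08, adjusted p = 0.0361) were lower, and Slc7a7 was not called (0.07 ± 0.19, adjusted p = 0.822). The size of the Slc7a11 change depended on the quantification. The gene table used here had 758 and 893 reads in the line named KO and 284 and 618 in the line named Rescue. The second quantification had 1582 and 1839 against 1035 and 1466, a smaller ratio. Slc6a9 was lower by a log2 change of -0.74 ± 0.17 (adjusted p = 0.0402). Slc7a6os, the neighbour of Slc7a6 that is no carrier, was at 42.0 and 44.4 TPM without and with TNF in the line named KO and 34.9 and 33.0 in the line named Rescue (-0.44 ± 0.09, adjusted p = 0.0340).

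Slc6a15, a carrier of leucine, proline and methionine known from neurons, was at 2.45 and 2.85 TPM in the line named WT, 1.52 and 1.92 in the line named KO, and 7.19 and 12.4 in the line named Rescue. The line named Rescue stood above both others, by 2.38 ± 0.19 against the line named KO (adjusted p = 0.00607) and 1.76 ± 0.18 against the line named WT (adjusted p = 0.00737). Slc7a3 (1.48 ± 0.35, adjusted p = 0.0442) and Slc38a6 (0.65 ± 0.16, adjusted p = 0.0455) were higher in the line named Rescue than in the line named KO. So were Slc38a9 (0.50 ± 0.12, adjusted p = 0.0470) and the proton-coupled carrier Slc36a1 (0.33 ± 0.07, adjusted p = 0.0377), while the lysosomal exporter Slc38a7 was not called (0.12 ± 0.09, adjusted p = 0.405). Slc7a2 was not called (1.59, adjusted p = 0.0849).

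Against the line named WT, 2 of 35 members were higher and 5 lower, beside 24.6% of all genes called (12.5% higher and 12.1% lower), with medians of -0.19 for members and 0.00 for all genes. Besides Slc6a15, Slc6a17 was higher (0.69 ± 0.13, adjusted p = 0.0255). Slc38a4 (-2.40 ± 0.45), Slc1a3 (-2.13 ± 0.22), Slc7a11 (-1.16 ± 0.26), Slc38a10 (-0.56 ± 0.08) and Slc3a2 (-0.39 ± 0.08) were lower, with adjusted p of 0.0236, 0.00737, 0.0333, 0.0120 and 0.0326. For Slc7a11 the second quantification had 1199 and 2398 reads in the line named WT against 1035 and 1466 in the line named Rescue. The gene table used here had 588 and 1367 against 284 and 618, a larger ratio. Slc38a4 was at 2.42 and 0.42 TPM without and with TNF in the line named Rescue, so its untreated library lay between those of the lines named KO and WT. Of 14 smooth muscle and fibroblast markers, 2 were higher and 3 lower in Rescue against KO and 2 and 4 in Rescue against WT, and of 8 endothelial markers 1 and 2 were lower. Epithelial markers summed to 1.10 and 2.20 TPM in the line named Rescue and 17.3 to 45.9 TPM in the other lines. Their part in these results was not tested.

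Without the library labelled KO_TNF (named Rescue) or Rescue_TNF no member and no gene at all was called in either comparison. Against the line named KO, 7 members were called without the library labelled WT_TNF (named KO with TNF) and 7 with DESeq2, where Slc36a1, Slc38a6, Slc38a9 and Slc7a3 lost their calls. Against the line named WT, 4 were called without the library labelled KO (named WT with TNF), 11 without that labelled Rescue (named KO) and 13 without that labelled WT_TNF. Scaling by library size alone turned the members' split for Rescue against KO to 6 higher and 3 lower, and that of all genes from 1246 of 2601 higher to 1720 of 2643. For Rescue against WT it moved all genes from 1589 of 3129 higher to 2058 of 3286 and members to 3 higher and 4 lower.

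Splicing of the carrier transcripts. Psi is the fraction of a gene's transcripts that include a given node, a stretch bounded by splice sites. Of 220 nodes in 23 member genes with at least 20 reads in each library, 3 had both libraries of the line named KO above or below both of the line named WT with a gap of at least 0.1 psi, beside 0.635% of all 95031 nodes. For Rescue against KO 4 nodes did (0.58% of all nodes), and for TNF 0 nodes moved by 0.1 the same way in all 3 lines (0.103% of all nodes). These counts carry no test, and with a minimum of 50 reads, or a gap of 0.2, 1 node was left in each of the first 2.

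The Slc38a6 exon printed above was the node with the widest range. Its deposited psi was 0.245 and 0.0832 without and with TNF in the line named WT, 0.713 and 0.730 in the line named KO, and 0.0417 and 0.286 in the line named Rescue, on 27 to 33 reads each. Junction reads from the donor before the exon entered it in 6 of 26 and 8 of 20 reads in the line named WT, 18 of 21 and 16 of 21 in the line named KO, and 8 of 28 and 7 of 22 in the line named Rescue. As shares these are 23.1% (exact 95% binomial interval 8.97 to 43.7) and 40.0% (19.1 to 64.0), 85.7% (63.7 to 97.0) and 76.2% (52.8 to 91.8), and 28.6% (13.2 to 48.7) and 31.8% (13.9 to 54.9). The deposited psi and these shares differed most in the libraries named WT with TNF and Rescue. In both measures the line named KO was above the other lines at matched treatment, although the intervals of the TNF libraries of the lines named WT and KO overlap, as do those of the lines named Rescue and KO with TNF. The intervals cover counting error only. At the next exon, 7 reads came out of the cassette exon and 20 skipped it in the library named WT, and 12 and 11 in that with TNF. The line named KO had 10 and 3 without TNF and 11 and 5 with it, and the line named Rescue 3 and 17, and 5 and 15. On that side the library named WT with TNF lay nearer to the line named KO than on the donor side.

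The lower level of Slc38a6 in the line named KO depended on the quantification. In the gene table used here it had 216 and 168 reads in the line named WT, 112 and 99 in the line named KO, and 214 and 144 in the line named Rescue. The second deposited quantification gave 4435 to 5208 reads per library and a log2 fold change of -0.05 for KO against WT and -0.12 for Rescue against KO, neither called. There, 4078 to 4808 reads of each library were assigned to the transcript Slc38a6-208, whose annotated end (position 73314520) lies before that of the gene. Slc38a6-206, which reaches the gene's annotated end, had 349 and 315 reads in the line named WT, 191 and 222 in the line named KO, and 371 and 259 in the line named Rescue, and Slc38a6-201, which holds the exon, had 21.7 and 25.9, 34.8 and 35, and 17.3 and 16.8.

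**Figure D4:**
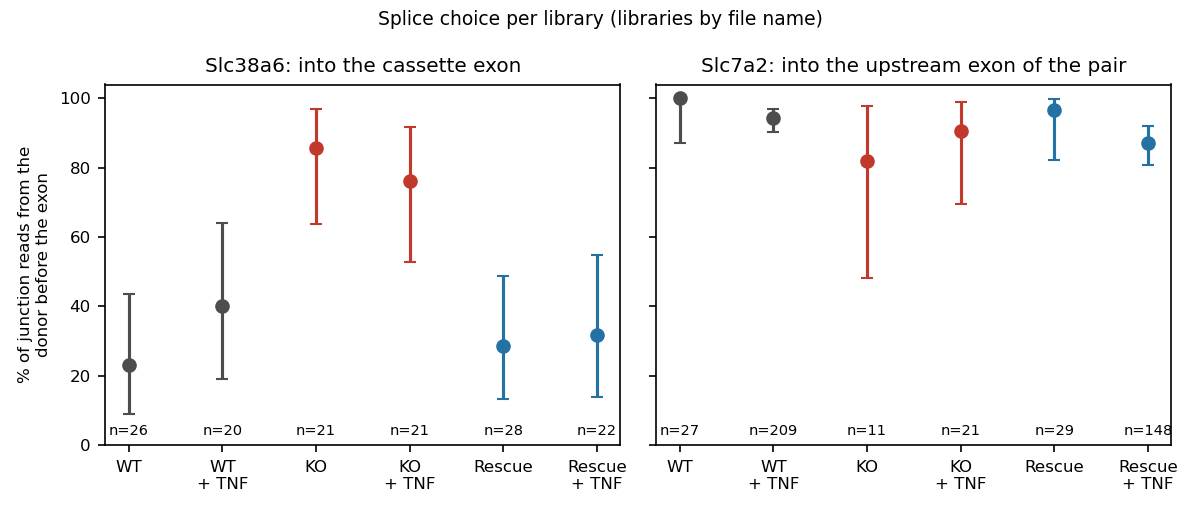
Share of junction reads (y axis, %) that enter the 101-nt exon of Slc38a6 (left) and the 140-nt exon of the Slc7a2 pair (right) from the donor before it, per library, with exact 95% binomial intervals and the number of reads. The line named KO is at 85.7% and 76.2% for Slc38a6, and the other 4 libraries are at 23.1% to 40.0%.

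In Slc7a2, the upstream exon of the pair was used in most transcripts of every library. From the donor before the pair, 27 of 27 reads without and 197 of 209 with TNF entered it in the line named WT, 9 of 11 and 19 of 21 in the line named KO, and 28 of 29 and 129 of 148 in the line named Rescue. The shares ran from 81.8% (exact 95% interval 48.2 to 97.7) in the library named KO to 100% (87.2 to 100) in that named WT, and all intervals but those of WT with TNF (90.2 to 97.0) and Rescue with TNF (80.7 to 92.1) were wide. The 5.95-fold and 5.73-fold higher levels of Slc7a2 with TNF thus came with 94.3% and 87.2% of these reads in the upstream exon. At the exon after the pair, 102 reads came from the upstream and 19 from the downstream exon in WT with TNF. In Rescue with TNF these were 84 and 8, so the 2 sides ordered these libraries differently. A further 8 and 5 reads joined both exons of the pair, and a transcript holding both counts as upstream at the donor. Which form of the carrier each exon encodes was not settled here. Of the other Slc7a2 nodes with 20 reads in at least 4 libraries, the 8 other cassette exons were at 0.959 to 1 psi in all libraries and 2 alternative first exons at 0 to 0.0526. Among 4 nodes of the transcript end, the third was at 0.668 to 0.783, the first at 0.0900 to 0.230, the second at 0.0564 to 0.189 and the last at 0.

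The other nodes past the gap were introns and an exon. In Slc6a9 a retained-intron node of 111 nt (chr4:117864643-117864753) was at 0.194 and 0.184 psi in the line named WT, 0.0546 and 0.0441 in the line named KO, and 0.212 and 0.185 in the line named Rescue, and exons of B4galt2, Ccdc24 and Gm17114 overlap the gene on the other strand. In the glutamine carrier Slc1a5 an intron of 477 nt (chr7:16786394-16786870) was at 0.155 and 0.106 in the line named WT, 0 and 0 on 72 and 65 reads in the line named KO, and 0.0848 and 0.0962 in the line named Rescue. A second Slc1a5 intron node of 71 nt (chr7:16795953-16796023) was at 0.322 and 0.482 in the line named WT, 0.463 and 0.465 in the line named KO, and 0.280 and 0.320 in the line named Rescue, so the line named WT alone spanned most of this range. The Slc7a11 exon of 127 nt (chr3:50438789-50438915) was at 1 and 0.968 in the line named WT, 0.899 and 0.881 in the line named KO, and 1 in both libraries of the line named Rescue.

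Other genes of the pathways. The Atf4 list, which answers amino acid shortage, had 0 of 23 tested genes higher and 12 lower with TNF (median -0.38, all genes -0.01), 4 higher and 2 lower in the line named KO against WT, 1 higher and 10 lower in Rescue against KO, and 1 and 4 in Rescue against WT. As shares called, these are 52.2%, 26.1%, 47.8% and 21.7%, beside 22.0%, 33.0%, 20.4% and 24.6% of all genes. With TNF, the proline enzyme Pycr1 changed by -1.24 ± 0.19, the Atf4 inhibitor Trib3 by -1.23 ± 0.10 and the stress factor Ddit3 by -0.68 ± 0.06, while Atf4 itself was not called (-0.22 ± 0.06, adjusted p = 0.0581). Asparagine synthetase Asns was higher in KO against WT (0.51 ± 0.11, adjusted p = 0.0226) and lower in Rescue against KO (-0.78 ± 0.11, adjusted p = 0.0159). Slc7a11, whose promoter is printed above, is a member and not part of this list. Of 20 cytosolic tRNA synthetases, 7 were higher and 0 lower in KO against WT, 1 higher and 8 lower in Rescue against KO, 3 and 1 with TNF, and 2 and 1 in Rescue against WT. The shares called were 35%, 45%, 20% and 15%, of which the first is near the 33.0% of all genes in KO against WT.

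Among 13 tested genes of arginine, nitric oxide and polyamine metabolism, 4 were higher and 2 lower with TNF (46.2%, beside 22.0% of all genes). Nos2, which uses arginine, was at 0.13 and 68.4 TPM without and with TNF in the line named WT, listed at 0 and at 0.09 in the line named KO, and listed at 0 and at 13.3 in the line named Rescue. Gch1, which makes a cofactor of that enzyme, was at 1.09 and 17.3, 1.17 and 3.84, and 1.68 and 13.7 TPM (TNF over the lines 3.07 ± 0.43, adjusted p = 0.0149). Ass1, which recycles citrulline to arginine, was at 313 and 1068, 416 and 470, and 178 and 466 TPM, and its TNF response in the line named KO was smaller (difference -1.43 ± 0.19, adjusted p = 0.0183). For Nos2, Gch1 and Ass1 the gap in TPM between the TNF and the untreated library was smallest in the line named KO. The difference in response of Gch1 did not pass the test (-1.78 ± 0.50, adjusted p = 0.191), nor did that of Nos2. In the lines named WT, KO and Rescue, Nos2 had 5, 0 and 0 reads without TNF and 3125, 4 and 545 with it. With so few untreated reads its fold changes are poorly defined, so the missed call does not show that the responses were alike.

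By Pearson correlation of log2 CPM over the 6 libraries, the 5 genes most like Slc7a2 were Gnptab (r = 0.994), Acer2 (0.993), Slamf8, P2rx7 and Dlc1. These are descriptions over 6 points that share the same lines and treatments. Gnptab was at 26.4 and 54.4 TPM in the line named WT, 19.9 and 25.2 in the line named KO, and 29.0 and 52.2 in the line named Rescue.

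With the labels' groups, edgeR called 0 genes in each of the 4 comparisons (0.0% of all genes), and so 0 members. At an unadjusted p under 0.05 there were 491 genes for TNF, 29 for KO against WT, 27 for Rescue against KO and 91 for Rescue against WT, of which 0, 1, 1 and 0 were members. DESeq2 called 93, 0, 3 and 9 genes in the same order and no member. Of the 220 splicing nodes, 1 passed the gap for KO against WT, 1 for Rescue against KO and 0 for TNF, beside 0.166%, 0.169% and 0.0726% of all nodes. All statements on direction above therefore hold for the groups that the file names read.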

How the data were processed

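RNA of 6 libraries of a mouse aortic cell line was sequenced, 1 per group. The authors deposited expected counts and TPM per gene from RSEM, per the submitters' processing notes and the file headers. For the library labelled Rescue values per transcript were summed. Another deposited set holds estimated counts per gene and per transcript (the second quantification), and further files hold, per splicing node, psi as a fraction with its reads, and junction counts, per the file headers. No source used here gives the tool, aligner and build behind these, or the RSEM version and strand. Node edges match GENCODE vM21 (GRCm38).

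Expected counts were rounded. A row that names no gene (0.0735% to 0.0927% of counts) was left out. Genes passing filterByExpr (12728 of 21674) were tested with edgeR 4.0.16 (quasi-likelihood, TMM, R 4.3.3), with Benjamini-Hochberg adjustment at 0.05. Folds between 2 libraries add a prior count of 2. Depth was 19582767 to 21609230 counts. Of the 62 members, 61 were found in the second quantification. Alternatives were DESeq2 1.42.0, RLE factors, library size alone, no filter, the second quantification, leaving out each library, and a read minimum of 50 or gap of 0.2 for psi. Junction shares were chosen after seeing the data.

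Named genes were members past the threshold in a comparison by file names plus Slc7a1, Slc7a2, Slc7a5, Slc3a2, Slc7a11, Slc1a5, Slc38a1 and Slc38a2, and up to 4 called genes of each other list plus a few set by name. Slc43a2 falls outside this rule and was chosen after its values were seen. Members and lists were chosen with earlier results of these data known. The labels do not name separate cultures, so p-values rest on these 6 libraries.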

Additional observations from a re-analysis of the deposited data

Results flagged for a closer look

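Members whose TNF response in the line named KO differed from that in the lines named WT and Rescue, by the term for that difference, were Slc7a2 (log2 difference -1.89, adjusted p = 0.00259 with edgeR) and Slc7a11 (-0.92, adjusted p = 0.0470 with edgeR). In both, the TNF library was higher than the untreated one in 3 of 3 lines. The groups hold 1 library each, so no check for outlying samples could be made.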

How the results depend on the processing

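Of 40 calls of a member in a comparison by file names, all 40 kept their direction with DESeq2, RLE factors, library size scaling and no filter, and 39 with the second quantification, where Slc38a6 for Rescue against KO reversed to -0.12. Calls were lost for 9 with DESeq2, 1 with RLE factors, 6 with library size scaling, 2 with no filter and 6 more in the second quantification. Leaving out 1 library at a time gave 0 to 17 members called for TNF, 2 to 12 for KO against WT, 0 to 10 for Rescue against KO, and 0 to 13 for Rescue against WT, and 0 to 0 with the labels' groups. Over all genes these ranges were 3 to 3741, 1073 to 4054, 0 to 2683 and 0 to 4579. Each such fit has 1 residual degree of freedom. Members called for Rescue against KO numbered 7 with DESeq2 against 11, and for the TNF response of the line named KO 1 with RLE factors, library size scaling, the second quantification and DESeq2 against 2. Splicing nodes past the gap fell from 3 to 1 and from 4 to 1 for KO against WT and Rescue against KO, with 50 reads or a gap of 0.2. With the labels' groups they fell from 1 to 0 for KO against WT under both, and from 1 to 0 for Rescue against KO with 50 reads. The cause of these changes was not tested. No paired analysis was possible because each group holds 1 library, so that no replicate number could serve as a block, while the additive fit already sets TNF against untreated within each line. Of the tested members, Slc1a7 had 40 reads over all 6 libraries, Slc6a12 47, Slc3a1 62, Slc7a4 107, Slc1a6 109 and Slc7a3 145. Of those called, Slc7a3, Slc6a4, Slc38a4 and Slc1a3 had under 50 reads in some libraries.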

Other observations

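Lists not described above were counted in the same fits, in which 22.0% of all genes were called for TNF, 33.0% for KO against WT, 20.4% for Rescue against KO and 1.36% for the TNF response of the line named KO. Of 17 tested TNF and NF-kB targets, 15 were higher and 0 lower with TNF (88.2%), and 7 had a smaller response in the line named KO (41.2%). Glutathione genes had 5 of 14 higher and 3 lower with TNF (57.1%) and 0 higher and 5 lower in Rescue against KO (35.7%), where 5-oxoprolinase Oplah changed by -2.04 and Nqo1 by -1.03. Of 24 genes that sense amino acids upstream of mTORC1, 4 were higher and 2 lower in KO against WT (25%, below the share of all genes), and the GTPase gene Rragb was higher by 1.25. Of 16 enzymes of glutamine, glutamate, serine, branched-chain and tryptophan metabolism, 3 were higher and 2 lower there (31.2%, near the share of all genes), with the transsulfuration enzyme Cbs at -2.66 and glutaminase Gls2 at 1.51. Of 17 amino acid carriers of other families, 4 were higher and 2 lower with TNF (35.3%) and 4 were higher and 3 lower in KO against WT (41.2%), where the ornithine carrier of mitochondria Slc25a15 was at 0.87. The lysosomal histidine and peptide carrier Slc15a3, called in both, had 0 or 1 read in each untreated library and 70, 3 and 15 reads with TNF in the lines named WT, KO and Rescue, so its line difference rests on the TNF libraries. All changes are log2 fold changes of genes called by edgeR. Blood cell and macrophage markers summed to 30.4 to 61.1 TPM and epithelial markers to 1.10 to 45.9 TPM.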
